A study of Mus musculus with 44 samples.

Results

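ChIP-seq for the transcription factors NF-kB and IRF3 was done in macrophages grown from C57BL/6 bone marrow, either wild type (WT) or without the DNA methyltransferase Dnmt3a (KO), before and after bacterial lipopolysaccharide (LPS). The results below describe the 444 genomic regions at which a peak was listed for NF-kB in KO macrophages given LPS and in none of the other 7 peak lists. To find them, the peaks of all 8 lists on chromosomes 1 to 19, X and Y were joined into 5605 regions wherever they overlapped by 1 bp or more. The regions were chosen by the authors' peak calls, that is by presence in 1 list and absence from 7. The 444 regions make up 7.92% of all regions, and each holds exactly 1 of the 2376 peaks of its list. The other 7 lists are those of NF-kB in the remaining 3 conditions (WT given LPS, KO untreated, WT untreated) and of IRF3 in all 4.

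Every group shared the same culture, 30 ng/ml M-CSF in medium with 10% serum, and was used at day 8 to 10. Treated cells received 10 ng/ml LPS for 6 hours. Each NF-kB list merges 3 replicates and each IRF3 list merges 2 or 3, and the sources used here give no read depth. Because merging leaves no spread between replicates, no difference between lists was tested. A region absent from a list is one with no listed peak, which does not show that the factor was absent. The labels give neither the NF-kB subunit, nor the Dnmt3a allele and how it was deleted, nor whether replicates came from separate mice. All intervals below are exact Clopper-Pearson 95% intervals for counting error. Coordinates are in mm10.

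NF-kB is a family of dimeric transcription factors that inhibitory IkB proteins hold in the cytoplasm of resting macrophages. LPS binds Toll-like receptor 4, whose signalling leads to loss of IkB and entry of NF-kB into the nucleus. There it binds short kB sites near genes for cytokines, acute-phase proteins and its own inhibitors, which switch the response off again. Dnmt3a places new methyl groups on CpG sites in DNA.

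Of the regions, 25 lay within 10 kb of genes of this pathway or other macrophage genes. The share of all regions near these genes was not computed, so this count of regions has no background. Peaks overlapped the bases just before the start of Lcn2, which encodes an iron-siderophore binding protein, Nfkbia, which encodes the inhibitor IkBa, and B2m, the light chain of MHC class I. Others lay inside or near Birc3, an inhibitor of apoptosis, Tnfaip3, the gene of the NF-kB inhibitor A20, the cytokine gene Il1b, the acute-phase Saa genes and Socs3, a feedback inhibitor of cytokine signalling. In all, 22 of 296 genes (7.43%) in 11 lists of inflammatory and macrophage genes had such a region within 10 kb, against 0.955% of all 21887 protein-coding genes. The lists were drawn up with earlier results of these data known, so this count is a description and was not tested. With only the 6 regions of a deposited q-value under 0.05, the count was 4: Sema4d, Adgre1, Saa1 and Saa2. Saa1 and Saa2 shared 1 of these regions. Lcn2, Nfkbia, B2m, Birc3, Tnfaip3, Il1b and Socs3 were not among the 4. The regions listed for NF-kB in WT with LPS alone, 501 in number, lay near 1 of the 296 genes, with 0.827% of all genes. The count was not made for regions listed with LPS in both genotypes. Nearness to these genes is therefore not shown to be particular to KO with LPS alone.

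Promoter sequences are shown first because they are places where a listed peak met the start of a named gene. A table of RefSeq promoters (GRCm38.p6, each from 250 bases before to 50 after a gene's start) held 32851 windows for 17492 of the 21887 protein-coding genes and for other genes. Peaks of the 444 regions overlapped 7 windows, 5 of them of protein-coding genes. The other 2 windows belonged to Gm36913 and Gm36634. Peaks at Adgre1 and Saa3 crossed an edge of the gene span but overlapped no window, so no sequence is shown for them. The 250 bases before each of the 5 starts are given 5′ to 3′ in the direction of transcription, and capitals mark matches to the kB consensus on either strand.
Lcn2, chr2:32387740-32387989, minus strand: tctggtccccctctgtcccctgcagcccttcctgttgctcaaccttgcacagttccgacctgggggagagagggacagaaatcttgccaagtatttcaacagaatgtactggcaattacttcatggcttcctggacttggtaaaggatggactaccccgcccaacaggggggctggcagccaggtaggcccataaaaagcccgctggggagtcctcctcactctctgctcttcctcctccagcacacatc
Nfkbia, chr12:55492648-55492897, minus strand: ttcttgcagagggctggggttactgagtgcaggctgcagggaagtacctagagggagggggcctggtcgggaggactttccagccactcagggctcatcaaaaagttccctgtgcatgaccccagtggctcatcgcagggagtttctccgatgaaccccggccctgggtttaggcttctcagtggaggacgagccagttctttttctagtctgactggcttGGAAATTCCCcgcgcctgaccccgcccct
B2m, chr2:122147437-122147686, plus strand: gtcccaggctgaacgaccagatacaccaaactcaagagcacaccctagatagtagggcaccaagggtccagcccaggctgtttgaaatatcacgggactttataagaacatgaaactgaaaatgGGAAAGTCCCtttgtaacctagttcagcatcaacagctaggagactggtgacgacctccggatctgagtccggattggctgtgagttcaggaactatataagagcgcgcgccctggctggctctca
Birc3, chr9:7873171-7873420, minus strand: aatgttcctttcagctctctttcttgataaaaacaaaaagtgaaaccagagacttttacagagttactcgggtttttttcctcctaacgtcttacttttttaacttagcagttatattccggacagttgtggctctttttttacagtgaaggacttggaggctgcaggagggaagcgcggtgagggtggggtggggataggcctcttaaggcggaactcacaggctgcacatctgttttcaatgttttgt
Sp110, chr1:85598811-85599060, minus strand: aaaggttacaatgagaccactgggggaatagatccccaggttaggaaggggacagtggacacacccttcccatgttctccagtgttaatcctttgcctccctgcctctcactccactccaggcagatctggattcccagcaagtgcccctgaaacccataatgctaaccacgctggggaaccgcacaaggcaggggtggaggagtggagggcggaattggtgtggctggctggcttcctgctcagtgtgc

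The B2m peak (chr2:122147490-122147633) spanned 144 bp, all within these bases, from 197 to 54 bases before the start. It covered the capitals, the kB match GGAAAGTCCC, which ended 117 bases before the start. This B2m peak ranked 1484 in the list, with a deposited q-value of 0.721, and also lay inside the span of the gene Patl2. At Nfkbia the peak (chr12:55492730-55493057, 328 bp) covered the 168 bases from 250 to 83 before the start. The kB match in capitals there lay outside that peak and ended 20 bases before the start. The Lcn2 peak (chr2:32387708-32388054, 347 bp) covered all 250 bases and the start itself, and no match to the consensus was found in them. The Birc3 peak (chr9:7872986-7873162, 177 bp) covered none of the bases shown, since it lay within the gene just after this start, and Sp110, a nuclear body gene, had 195 of its bases covered. Neither sequence held a match, which says only that these letters are not in this window. The Sp110 peak ranked 1927 with a deposited q-value of 0.889. Its start is an internal one, since the gene span runs on upstream to position 85610850. This peak lay 11317 bp from the nearest end of a gene span.

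Of the 7 overlapped windows, 3 held the kB consensus (42.9%, 9.90 to 81.6%), against 8.46% of all windows. The windows of Nfkbia and Gm36634 lay under 1 peak, so 2 of the 3 share it, and the match in B2m was the only 1 of the 3 inside a peak. The windows are few, and the lower bound of the interval is close to the share of all windows. A looser core, GGG and CC with any 5 bases between, was in 6 of the 7 and in 50.8% of all windows. A stricter form, GGGA and TTTCC with any 1 base between, matches both other patterns too and was in 2 (B2m and Nfkbia) and in 0.411% of all. Both strands were searched. Promoter windows overlapped by regions of WT with LPS alone numbered 4 and those of untreated KO alone 3, and none of them held the consensus. Among the 11 windows under peaks listed with LPS in both genotypes and in neither untreated NF-kB list, 4 held it. CpG dinucleotides, the sites Dnmt3a acts on, numbered 3 to 15 in the 7 windows with a median of 7, against medians of 7 over all windows and 13 over those of protein-coding genes. The overlapped window of Nfkbia held 15, that of B2m 14, Birc3 7, Sp110 5 and Lcn2 3.

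**Figure D1:**
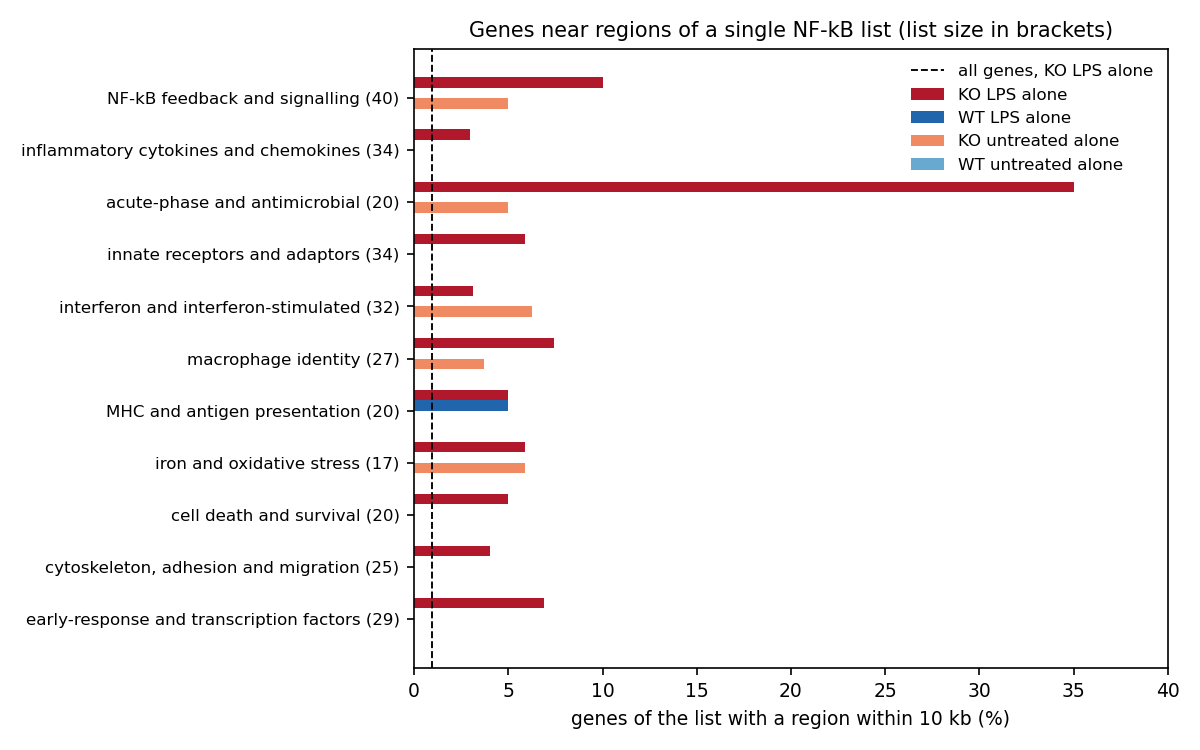
Percentage of the genes in each of 11 lists with a region within 10 kb, for regions listed in a single NF-kB list (colours), with the size of each list in brackets. The dashed line marks 0.955%, the share of all protein-coding genes near a region of KO with LPS alone, and every list has at least 1 such gene, up to 7 of 20 acute-phase and antimicrobial genes.

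The genes were then taken by role. Of 40 genes of NF-kB feedback and signalling, 4 had a region within 10 kb. Tnfaip3 encodes A20, an enzyme that edits ubiquitin chains and restrains NF-kB signalling. Its region (chr10:19015053-19015333, 281 bp) had a deposited signal value of 26.9, the highest of all 444, and ranked 435 in the list. It lay inside the gene, 77 bp from the annotated start, and directly abutted a second KO peak of 372 bp, which ranked 53. That second peak was also listed in WT with LPS, with 65 bp between the WT peak and the region. At Tnfaip3 the KO list therefore held a pair of adjoining peaks where the WT list held 1. The Birc3 peak ranked 601 with a deposited q-value of 0.221, and Nfkbiz, an atypical IkB gene, had a 325 bp peak inside the gene (chr16:55822203-55822527, rank 965). The Nfkbia peak ranked 2153, near the bottom of the list, with a q-value of 0.912.

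The nearest peak of WT with LPS lay 156514 bp from Birc3, 806301 bp from Nfkbia and 943077 bp from Nfkbiz. Such distances were common: over 21631 protein-coding genes on chromosomes with peaks of that list, the median was 492595 bp, with quartiles at 184770 and 1060018 bp. For these 3 genes no list other than KO with LPS had a peak within 10 kb.

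Acute-phase and antimicrobial genes had the highest count, 7 of 20, and these rested on 5 regions, since neighbouring Saa genes shared a region. The Saa genes encode serum amyloid A proteins, which rise steeply during inflammation. A 158 bp peak (chr7:46745845-46746002, rank 177, q-value 0.0343) lay between Saa1 and Saa2, 2663 bp from Saa1 and 5830 bp from Saa2. A 527 bp peak (chr7:46719528-46720054, rank 1005, q-value 0.456) overlapped an end of Saa3 and lay 7937 bp from Saa4. The nearest NF-kB peak in WT with LPS was 478188 bp from Saa1. Lcn2 had its peak at rank 301 with a q-value of 0.0830. Cybb, a subunit gene of the phagocyte NADPH oxidase, had a 230 bp peak inside the gene (rank 1349, q-value 0.645). Lyz1, a lysozyme gene, had a 135 bp peak 9045 bp away (rank 1264, q-value 0.593). Saa and lysozyme genes each have close paralogs, so the assignment of reads among them is uncertain.

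Among 34 cytokine and chemokine genes Il1b alone was marked. It encodes interleukin-1 beta, a fever-inducing cytokine. A pair of abutting KO peaks of 239 and 202 bp (chr2:129380911-129381149 and chr2:129380709-129380910) lay 9746 and 9544 bp from the gene at ranks 752 and 2089. Their q-values were 0.303 and 0.912. The nearest NF-kB peak in WT with LPS was 1630938 bp from Il1b and the nearest in untreated KO 83012 bp.

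Of 34 innate receptor genes, 2 were marked, both formyl peptide receptors, which sense bacterial peptides. A 209 bp peak (chr17:17884844-17885052, rank 377) lay between Fpr1 and Fpr2, 904 bp from the first and 2771 bp from the second, and a 126 bp peak lay 4542 bp from the other end of Fpr1. WT with LPS had a peak 6902 bp from Fpr2, where KO with LPS had one too. These receptors are paralogs too.

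Among 29 early-response and transcription factor genes, Socs3 and Ptges were marked. Socs3 had 4 regions within 10 kb, more than any other gene of the lists. They flanked the gene on both sides, at 3626 bp (rank 271), 5850 bp (rank 330), 7565 bp (rank 257) and 9169 bp (rank 1604), and spanned 140 to 266 bp. The last of them lay nearer to another gene, Pgs1, at 6651 bp. The nearest peak of WT with LPS lay 19322 bp from Socs3, at a position KO with LPS also had. Ptges, which encodes the inducible prostaglandin E synthase, had peaks of 345 bp (chr2:30929659-30930003, rank 275) and 223 bp (rank 747) inside the gene. A further 2 KO peaks within Ptges overlapped WT peaks with LPS and so are not among the 444.

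**Figure D2:**
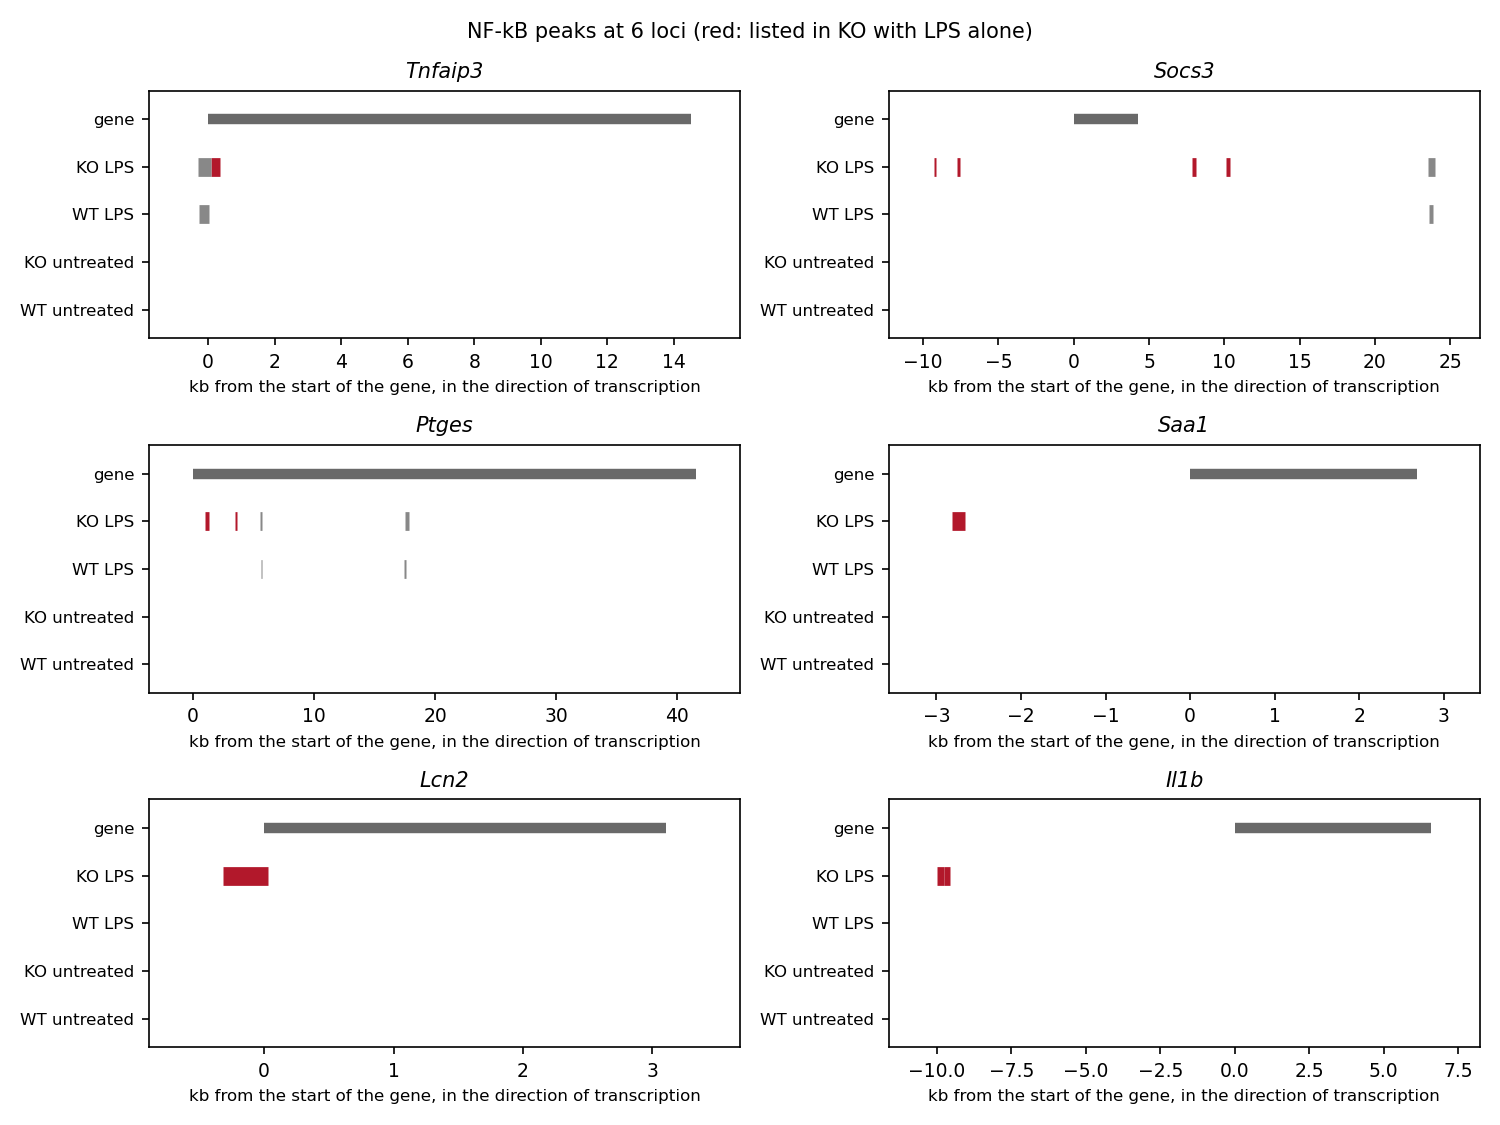
NF-kB peaks of the 4 NF-kB lists at 6 genes, drawn to scale as distance in kb from the annotated start of the gene, with regions of KO with LPS alone in red and other peaks in grey. Tnfaip3 and Ptges also carry WT peaks, Socs3 has its nearest WT peak 19322 bp from the gene, and at Saa1, Lcn2 and Il1b only KO with LPS has a peak in the stretch drawn.

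The remaining lists had 1 or 2 genes each. Adgre1, which encodes the macrophage surface marker F4/80, had a 146 bp peak across its annotated edge (chr17:57358488-57358633, rank 222, q-value 0.0490) and was marked with Lyz1 among 27 macrophage identity genes. B2m was the 1 marked gene of 20 for antigen presentation, at rank 1484. Sema4d, a semaphorin gene in the list of 25 for cytoskeleton and adhesion, held the best-ranked of all 444 peaks (chr13:51740932-51741081, rank 124, q-value 0.0180). That peak was 150 bp wide and lay inside the gene, 52597 bp from its nearer end. Bcl2a1a, a survival gene with near-identical copies, had a 139 bp peak at rank 2299 with a q-value of 0.912. Slc7a11, the cystine transporter gene, and Tbk1, whose kinase activates IRF3, had the widest of these regions (1706 and 1305 bp). Slc7a11 also had peaks in 6 of the other 7 lists within 10 kb, and Tbk1 had 2 in untreated KO. Of the 22 marked genes, 5 had a peak of any other list within 10 kb (Fpr2, Ptges, Slc7a11, Tbk1 and Tnfaip3), 4 had one in WT with LPS, and 1 had an IRF3 peak.

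None of 34 markers of T cells, B cells, neutrophils, stromal cells and erythroid cells had such a region. The share of all genes was 0.955%, so a count of 0 among so few markers does not show specificity. For WT with LPS alone the count was 1 (Pdgfrb), and for untreated KO alone and untreated WT alone it was 0. Of the 296 inflammatory and macrophage genes, 7 lay near regions of untreated KO alone (1.60% of all genes), among them Ripk2, Ddx58 and Tbk1. Regions of untreated WT alone lay near none of the 296 (0.352% of all genes). Those sets differ in size, with 843 and 186 regions. Within 1 kb the counts were 15 for KO with LPS alone, 1 for WT with LPS alone and 6 for untreated KO alone, with 0.681, 0.589 and 1.20% of all genes. Within 50 kb they were 32, 5 and 10, with 2.36, 1.93 and 3.54%. No test was made of these counts, because regions of 1 list are not replicates and the lists of genes were drawn up with earlier results of these data known.

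Beyond the lists, the best-ranked peaks lay near genes of varied function. The 20 best-ranked peaks with a gene within 100 kb included 3 near Socs3 and 1 each in or near Sema4d, Saa1, Adgre1, Ptges, Lcn2, Fpr1 and Tnfaip3. A further 2 lay 31689 and 39258 bp from Incenp, an inner centromere protein gene. Inside genes there were peaks in Vmp1 (an autophagy gene, rank 194), Aopep (an aminopeptidase gene, rank 224), Pik3ap1 (an adaptor gene of phosphoinositide 3-kinase, rank 315), Acsl5 (a fatty acid activating enzyme, rank 413) and F7 (coagulation factor VII, rank 423). Atf3, a stress-induced transcription factor gene, had a 129 bp peak 14718 bp away at rank 406. Ccdc88b and the pheromone receptor gene Vmn1r39 had theirs 18787 and 43684 bp away. All of these peaks were between 129 and 670 bp wide.

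Some genes held several of the regions. In all 23 genes had 2 or more within 10 kb, Socs3, Il1b, Fpr1 and Ptges among them. Sfi1, a centriole-associated gene on chromosome 11, had 7, and a run of 6 of them lay less than 20 kb apart each. The Sfi1 peaks ranked between 884 and 2059, and each lay within 1950 bp of a peak of another list. Sp110 and Sp140, a pair of overlapping nuclear body genes, shared 3. In total 71 regions fell in 32 runs with gaps under 20 kb, and 29 of these runs were pairs. The Sp, Sfi1, olfactory and vomeronasal receptor genes lie in stretches of similar copies, where peak placement is uncertain.

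**Figure D3:**
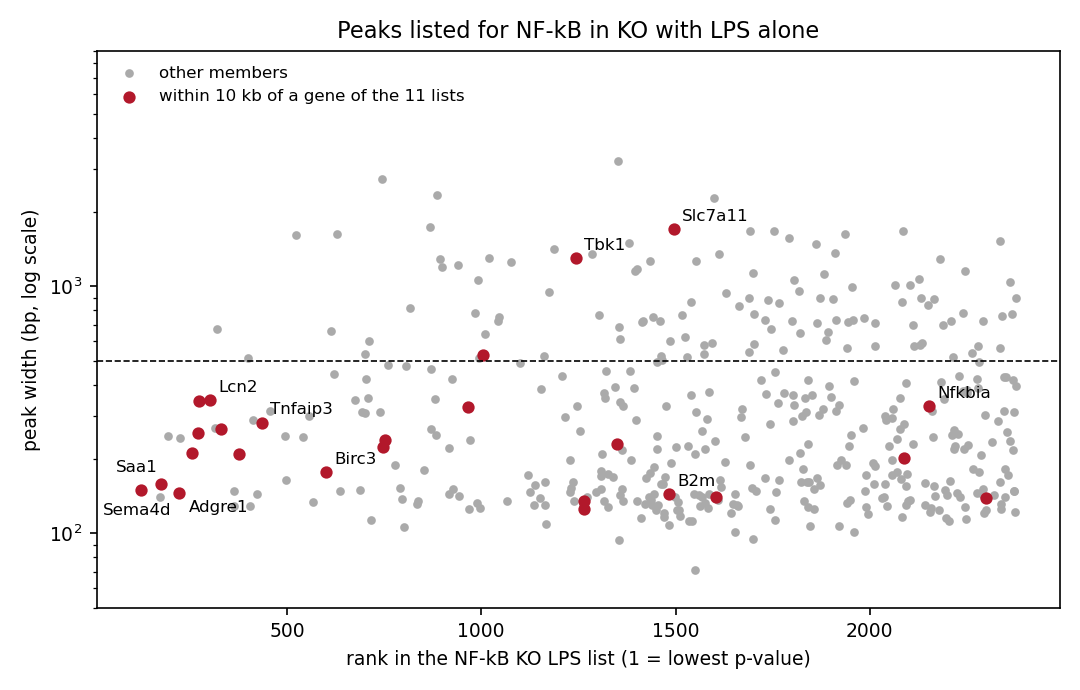
Width of each of the 444 peaks in bp (log scale) against its rank in the NF-kB list of KO with LPS, with peaks within 10 kb of a gene of the 11 lists in red and a dashed line at 500 bp. The red peaks number 25, of which 22 lie below 500 bp.

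The regions were narrow. Their width ran from 71 to 3213 bp with a median of 246.5 bp and quartiles at 147 and 523.5 bp. Of the 444, 327 were under 500 bp (73.6%, 69.3 to 77.7%), whereas 371 of the 1932 other peaks of the same list were (19.2%), with a median of 1144 bp. Regions of the other single NF-kB lists had medians of 314 bp (WT with LPS), 410 bp (untreated KO) and 298 bp (untreated WT), and regions in 2 or more lists had 1548 bp. Width, rank, signal and q-value come from the list that chose the regions and are given as a description.

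Most of the regions stood low in the list. Ranks ran from 124 to 2376 with a median of 1649.5, and the regions supplied 28 of the 594 best-ranked peaks and 187 of the 594 last. The median q-value was 0.817, against 0.476 for the other peaks of the list, and 6 regions had a q-value under 0.05, of 227 such peaks in the list. Those 6 lay in or nearest to Sema4d, Saa1, Vmp1, Adgre1, Aopep and Olfr161, the last at a distance of 477651 bp. The 25 regions near genes of the 11 lists stood higher, at a median rank of 752 and a median width of 223 bp.

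**Figure D4:**
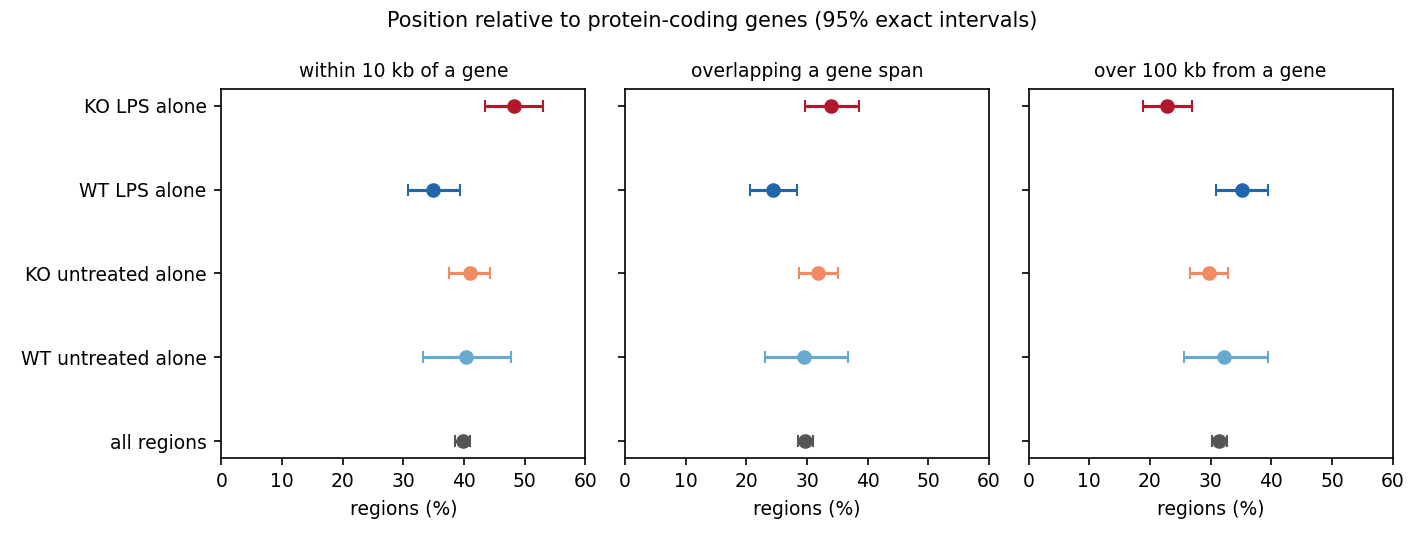
Percentage of regions within 10 kb of a protein-coding gene, overlapping a gene span and over 100 kb from any gene, for regions of a single NF-kB list and for all 5605 regions. Points are shares and bars exact 95% intervals for counting error, and the share within 10 kb is 48.2% for KO with LPS alone and 34.9% for WT with LPS alone.

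Of the 444 regions, 214 lay within 10 kb of a protein-coding gene (48.2%, 43.5 to 53.0%), where all regions gave 39.8%. The shares were 34.9% (30.8 to 39.3%) for WT with LPS alone, 40.9% (37.6 to 44.3%) for untreated KO alone and 40.3% (33.2 to 47.7%) for untreated WT alone. These intervals cover counting error within a merged list and not spread between replicates, so they do not measure a difference between KO and WT. No test between lists was possible. Gene spans were overlapped by 151 regions (34.0%, 29.6 to 38.6%), against 29.7% of all regions and 24.4% (20.7 to 28.4%) for WT with LPS alone. Protein-coding gene spans cover 38.2% of the annotated length of these chromosomes, and 47.6% with 10 kb on each side, and the share of the regions within 10 kb was close to that cover. Within 1 kb of a gene end lay 20 regions (4.50%, 2.77 to 6.87%), against 11 of 501 for WT with LPS alone (2.20%, 1.10 to 3.89%). All regions gave 2.44%, untreated KO alone 1.90% and untreated WT alone 0.538%. Regions of a single IRF3 list gave 4.23% (KO with LPS), 4.71% (WT with LPS), 1.48% (untreated KO) and 6.34% (untreated WT). Over 100 kb from any gene lay 101 regions (22.7%, 18.9 to 26.9%), and 176 of WT with LPS alone (35.1%, 30.9 to 39.5%). The share of all regions was 31.4%.

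Of the 327 narrow ones 50.2% lay within 10 kb of a gene (44.6 to 55.7%), and of the 117 wider ones 42.7% (33.6 to 52.2%), with overlapping intervals. In successive sets of 594 ranks, from best to last, the shares were 64.3, 55.7, 44.7 and 46.0%, with intervals of 44.1 to 81.4%, 43.3 to 67.6%, 36.8 to 52.7% and 38.7 to 53.4%, which all overlap. Chromosomes 2 and X held the most regions, 41 each, and chromosome 18 the fewest of the autosomes with 6, while Y held none. The X share of 9.23% was close to the 9.74% of all regions.

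**Figure D5:**
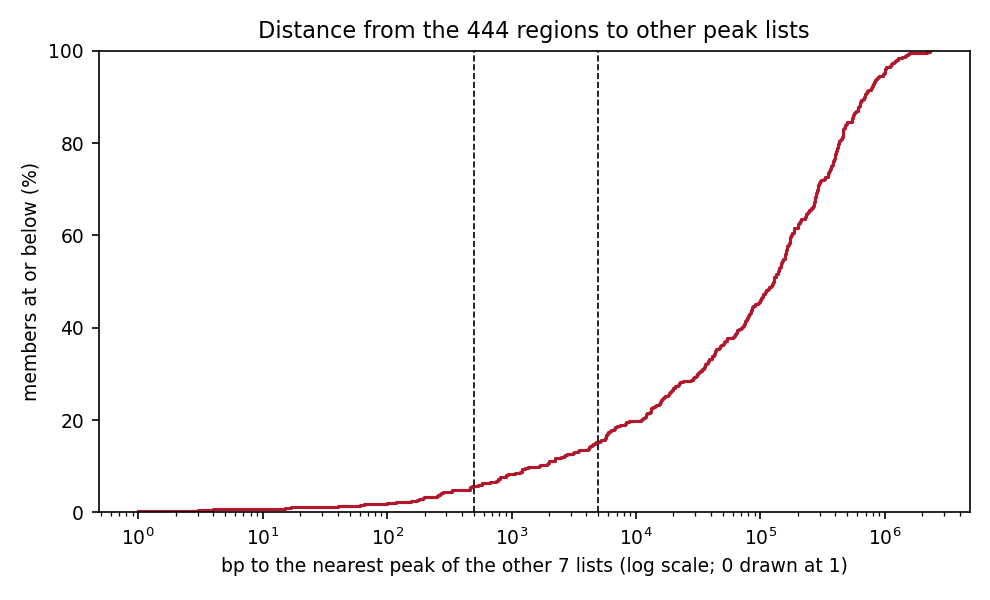
Cumulative percentage of the 444 regions by distance in bp (log scale) to the nearest peak of the other 7 lists, with dashed lines at 500 bp and 5 kb. The curve reaches 5.63% at 500 bp, 15.3% at 5 kb and 45.9% at 100 kb.

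The median distance from a region to the nearest peak of another list was 126866 bp. The rule leaves out every region that overlaps such a peak, and these distances were not computed for other sets of regions. They are therefore a description and do not show that the regions were unusually isolated. A peak of another list lay within 500 bp of 25 regions, within 1000 bp of 37 and within 5 kb of 68. For the 37 the nearest other list was NF-kB in WT with LPS in 10, NF-kB in untreated KO in 8 and IRF3 in KO with LPS in 8. Regions listed for NF-kB with LPS in both genotypes and in no untreated list of either factor numbered 138. Of the 444, 33 lay within 50 kb of one (7.43%, 5.17 to 10.3%), against 13 of 501 regions of WT with LPS alone (2.59%, 1.39 to 4.40%). The counts were 19 of 843 for untreated KO alone (2.25%) and 1 of 186 for untreated WT alone (0.538%). The share over all regions was not computed, so these counts have no background, and clustering around the 138 regions was not tested.

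At the edge of the rule, 3 regions came within 4 bp of another list's peak. One on the X chromosome, 85879 bp from Ctps2, touched a WT peak with LPS with 0 bp between, and those near Setd4 and in Hs6st3 stood 3 and 4 bp from IRF3 peaks. Just outside the rule, KO peaks near Nlrp3 (the inflammasome sensor gene) and Ptges overlapped WT peaks with LPS by 7 and 20 bp, and 1 near Klra17 overlapped an untreated KO peak by 21 bp. Of the 444 regions, 38 (those at Tnfaip3 and Il1b among them) abutted another peak of their own list, and in 5 of these that neighbour was also listed in WT with LPS.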

How the data were processed

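The deposited files are 8 peak lists of NF-kB and IRF3 ChIP-seq, in each of which the authors merged the replicates of a group, per the labels. Chromatin was sheared to between 100 and 300 bp, per the labels' protocols. The build is mm10, and named tools are MACS2 2.1.1, Picard 2.8.0, deepTools 3.5.0 and HOMER 4.9, per the submitters' processing notes, which give no roles. The aligner, thresholds and way of merging are not named in the sources used here. Each deposited peak carries a score and a signal value (a score without stated normalization), and a deposited p-value and q-value, used only to rank or filter peaks within a list. Rank 1 is the lowest p-value, and equal p-values were ordered by signal, then width, then position.

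Bisulfite, ATAC-seq and input samples were not analysed here. Python 3.11.15, pandas 2.3.3, numpy 2.4.6 and SciPy 1.17.1 were used, and the joining, distance and motif steps were tested on simulated data. Gene spans came from a table of GRCm38.p6 (mm10) without strand or exons, and distances are the bases between a region and the gene span. Of 335 symbols in the 16 gene lists, 331 matched. The members and lists were chosen with earlier results of these data known. Genes were named by rule: the 20 best-ranked peaks with a gene within 100 kb, list genes and genes with 2 or more regions within 10 kb, promoters overlapped, and 3 peaks on each side of the rule's edge. Of genes with several regions, those discussed were chosen after their values were seen. Sequences come from RefSeq promoter windows, since no genome was used here.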

Additional observations from a re-analysis of the deposited data

How the results depend on the processing

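Across 39 alternative settings, 26 left the value within its interval or, for counts, within 1.5 times. The number of regions was 353 to 472 under other rules for joining or overlap, and 563 with the 4 NF-kB lists only. It was 6 with a q-value under 0.05, 176 with every list cut to the 1169 best-ranked peaks, and 948 with the 2 LPS lists of NF-kB only, so it depends on which lists and peaks enter. Among the 6 regions with a q-value under 0.05 the share within 10 kb of a gene was 83.3%, the share in gene spans 66.7% and the share under 500 bp 100%, and 4 list genes were marked. The share near genes was 35.8% within 1 kb and 67.6% within 50 kb. The share of narrow regions was 65.9% with the 4 NF-kB lists only, 57.2% under 300 bp and 91.0% under 1000 bp. With GGG and CC around any 5 bases as the motif, 85.7% of the 7 promoter windows held the motif. The count of 22 list genes was 20 in the better-ranked 50% of regions, 18 among regions under 500 bp and 20 without abutting peaks, the last 2 settings chosen after seeing the data. No paired analysis was possible because each list merges its replicates, and for the same reason no replicate could be left out.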
